A study of Homo sapiens with 12 samples.

Results

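Transcript levels in MDA-MB-231 cells depleted of EZH2 were set against those in cells depleted of RELA or RELB, so that every array compared came from cells that had received an siRNA against a gene of interest. MDA-MB-231 is an established human breast cancer cell line that is triple-negative, that is, it lacks oestrogen and progesterone receptors and ERBB2 amplification. Of the 12 Illumina HumanRef-8 V2 bead arrays in the series, 6 entered this comparison and were chosen by their labels. The siEZH2 arm held 2 arrays, the third replicate without TNFalpha (CTRL) and the array of cells given 10 ng/ml TNFalpha for 4 h (TNF). The siRelA and siRelB arm held 4 arrays, 1 without and 1 with TNF for each of the siRNAs against RELA and RELB. All 6 arrays came from cells transfected with an siRNA, for a time the labels do not give, and no array with the negative control siRNA (siNC) entered the fit. The labels do not say how many siRNAs were used per gene or whether each array stands for its own culture. The p-values below therefore rest on array-to-array spread, part of which may be technical. Where siRelA and siRelB are pooled, this spread also holds the difference between these 2 knockdowns. Of 18136 genes on the array, 12009 were tested, those whose probe was detected on at least 2 of the 6 arrays.

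EZH2 is the catalytic subunit of Polycomb repressive complex 2 (PRC2), which methylates lysine 27 of histone H3 and keeps developmental and lineage genes silent. RELA and RELB are subunits of the transcription factor NF-kB. RELA acts in the canonical pathway that TNF and interleukin-1 switch on within minutes, and RELB mainly in the slower non-canonical pathway. Basal-like breast cancer lines such as this one carry high basal NF-kB activity and secrete NF-kB target cytokines without stimulation.

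Values are normalized log2 intensities unless stated, with the array without TNF given before the array with TNF, and each log2 change is given with its standard error (SE) from limma. Between 12474 and 12908 of 22184 probes were detected on each of the 6 arrays. The median signal of undetected probes, a measure of background, was 80.1 and 77.0 on the siEZH2 arrays, against 59.8 and 61.5 on the siRelA arrays and 59.2 and 58.1 on the siRelB arrays, so background moved with the arm; its part in the results was not tested. Of 8 markers that the line is known to express, VIM, CD44, AXL, FOSL1, CAV1 and MSN were detected on all 6 arrays, ZEB1 was detected on 2 and SPARC on 0. Of 8 markers listed as low or absent in the line, ESR1, PGR and FOXA1 were detected on 0 of 6 arrays, CDH1 on 3, GATA3 on 4 and ERBB2, ESRP1 and KRT19 on all 6. Among these 8, KRT19 was brightest, at 10.81 to 11.67, while ERBB2 and ESRP1 stayed between 5.44 and 6.37.

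The targeted genes were examined first. EZH2 was 6.36 and 6.60 on the siEZH2 arrays, against 9.42 and 9.35 on the siRelA arrays and 9.49 and 9.52 on the siRelB arrays. It was 7.81-fold lower with siEZH2 (log2 change -2.97 ± 0.113, limma adjusted p = 8.45e-05), and another EZH2 probe changed by -4.12. RELA was 7.06 and 7.10 on the siEZH2 arrays, against 5.03 and 5.00 on the siRelA arrays, where it was not detected, and 6.61 and 6.92 on the siRelB arrays. Both siEZH2 arrays were thus close to the siRelB arrays for RELA, and RELA was at least 3.71-fold higher with siEZH2 than with siRelA (limma adjusted p = 0.000147). Pooled over siRelA and siRelB the RELA difference did not pass (1.19 ± 0.596, limma adjusted p = 0.142). That SE held the gap between the siRelA and siRelB arrays, and against siRelA alone it was 0.113. RELB was 6.95 and 7.99 with siEZH2, against 5.85 and 6.14 with siRelA and 5.09 and 6.30 with siRelB. All siRelA and siRelB arrays lay below both siEZH2 arrays for RELB, and siEZH2 exceeded their mean by 1.63 ± 0.213 (3.09-fold, limma adjusted p = 0.00138).

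EZH2 knockdown and the NF-kB subunit knockdowns gave widely different transcript profiles. Over 5459 bright genes (mean log2 intensity over 8), the SD of the log2 difference between 2 arrays was 0.692 to 0.745 between siEZH2 and siRelA or siRelB arrays. It was 0.159 between the siEZH2 arrays, 0.174 and 0.137 within siRelA and within siRelB, and 0.280 to 0.328 between siRelA and siRelB. In the limma fit with TNF as a covariate, 5741 of 12009 genes (47.8%) passed at an adjusted p under 0.05, 2820 of them higher with siEZH2 (23.5%) and 2921 lower (24.3%). Over 2-fold, 710 genes were higher (5.91%) and 619 lower (5.15%). Some genes met the detection filter only through 1 arm. Of 203 genes detected on siEZH2 arrays only, 185 passed as higher. Of 494 detected on siRelA or siRelB arrays only, 239 passed as lower. The 2 siEZH2 arrays lay above all 4 others for 31.3% of genes and below them for 33.3%. Set against each reference siRNA in turn, siEZH2 was higher for 27.1% and lower for 28.3% of genes against siRelA, and higher for 26.6% and lower for 28.1% against siRelB; these comparisons share the siEZH2 arrays. Leaving out an siEZH2 array left 1 array in that arm and lowered the count of genes passing to 2488 (without the CTRL array) or 2618 (without the TNF array), and 2455 and 2547 of these were among the 5741.

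The siNC arrays, replicate 3 without TNF and the array with TNF, did not enter the fit and were used to describe which arm lay further from control siRNA. Of 1329 genes over 2-fold, siNC lay nearer the siRelA and siRelB mean in both TNF states for 1177 and nearer siEZH2 in both for 80. The 80 comprised 68 genes higher and 12 genes lower with siEZH2. On a scale where 0 is the siRelA and siRelB mean and 1 is siEZH2, siNC had a median position of 0.0783 over the 710 genes that rose over 2-fold and of 0.0744 over the 619 that fell. It lay between 0.25 and 0.75, bounds chosen after the values were seen, for 176 of the rises and 106 of the falls, where siEZH2 and the NF-kB siRNAs stood on opposite sides of control.

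**Figure D1:**
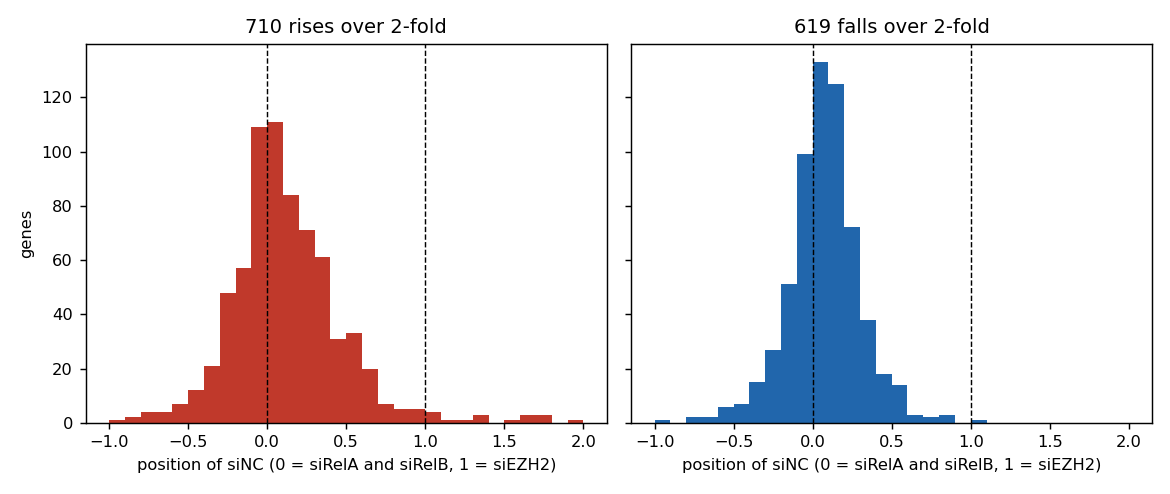
Histograms of the position of the siNC arrays (x axis, mean of the TNF states; 0 is the mean of siRelA and siRelB, 1 is siEZH2, both dashed) over the 710 genes higher and the 619 genes lower with siEZH2 by over 2-fold; the y axis counts genes. Most genes sit near 0, and the rises have a tail between 0.25 and 0.75 that holds 176 genes.

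SCG5, a neuroendocrine secretory chaperone, had the largest rise and was 12.37 and 12.39 with siEZH2, against 5.61 and 5.66 with siRelA and 5.70 and 5.46 with siRelB, a 109-fold difference (6.77 ± 0.107, limma adjusted p = 2.02e-06). With siNC it was 8.26 and 8.12, so siEZH2 stood above control and both NF-kB siRNAs below it. VNN1, which encodes the pantetheinase vanin-1, was 10.63 and 10.67 with siEZH2, against 4.47 and 4.51 with siRelA, where it was not detected, and 6.68 and 7.25 with siRelB (4.92 ± 0.842, limma adjusted p = 0.00385), at least 43.9-fold higher than with siRelA. MMP1, the interstitial collagenase, was 12.96 and 12.94, against 7.42 and 7.45 with siRelA and 9.56 and 9.63 with siRelB (21.6-fold, 4.43 ± 0.732, limma adjusted p = 0.00335). Both genes followed the order siRelA, siRelB, siNC and siEZH2, with siNC at 8.89 and 9.14 for VNN1 and at 10.83 and 10.75 for MMP1. Without the siEZH2 CTRL array VNN1 missed the threshold (adjusted p = 0.0501).

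ICAM1, the leukocyte adhesion receptor, was 9.42 and 10.22 with siEZH2, against 4.77 and 4.86 with siRelA, where it was not detected, and 5.91 and 7.07 with siRelB (4.17 ± 0.598, limma adjusted p = 0.00193), at least 24.8-fold higher than with siRelA. The siNC arrays again lay between the arms, at 7.31 and 8.23. ANGPTL4, a secreted lipoprotein lipase inhibitor, was 11.61 and 11.29, against 7.80 and 7.51 with siRelA and 7.90 and 7.62 with siRelB (13.4-fold, limma adjusted p = 2.72e-05). Its siNC values were 9.09 and 8.85, also between the arms, and another ANGPTL4 probe changed by 1.05.

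For 6 others of the largest rises, siNC did not lie above all siRelA and siRelB arrays in both TNF states. CALB2, the calcium-binding protein calretinin, was 12.70 and 12.66 with siEZH2, against 8.99 and 8.79 with siRelA and 9.19 and 9.11 with siRelB, and siNC was 8.96 and 8.94 (12.6-fold, limma adjusted p = 8.41e-05). PLD5, related to the phospholipases D, was 9.01 and 9.02, against 4.71 and 4.95 with siRelA, where it was not detected, and 6.08 and 6.18 with siRelB (limma adjusted p = 0.0012), with siNC at 4.70 and 4.75. The cystatin gene CST1 was 14.17 and 14.24, against 9.90 to 10.47 on the other 4 arrays, and the beta-defensin gene DEFB103A 9.29 and 9.13, against 5.44 to 6.06, and siNC lay below these ranges for both; probes of both may read near-identical copies. FAM83A, a signalling adaptor, was 9.43 and 9.48, against 4.78 and 5.03 with siRelA, where it was not detected, and 5.54 and 5.67 with siRelB (limma adjusted p = 0.000131), at least 19.2-fold higher than with siRelA. Its siNC values were 6.22 and 5.28, and its other probes changed by 0.70 and 4.25. ESM1, a secreted proteoglycan, was 10.42 and 10.87 with siEZH2, against 5.04 and 4.98 with siRelA, where it was not detected, and 8.05 and 8.67 with siRelB (limma adjusted p = 0.0274), with siNC at 6.65 and 6.96, and that call was lost when either siEZH2 array or the siRelA CTRL array was left out.

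**Figure D2:**
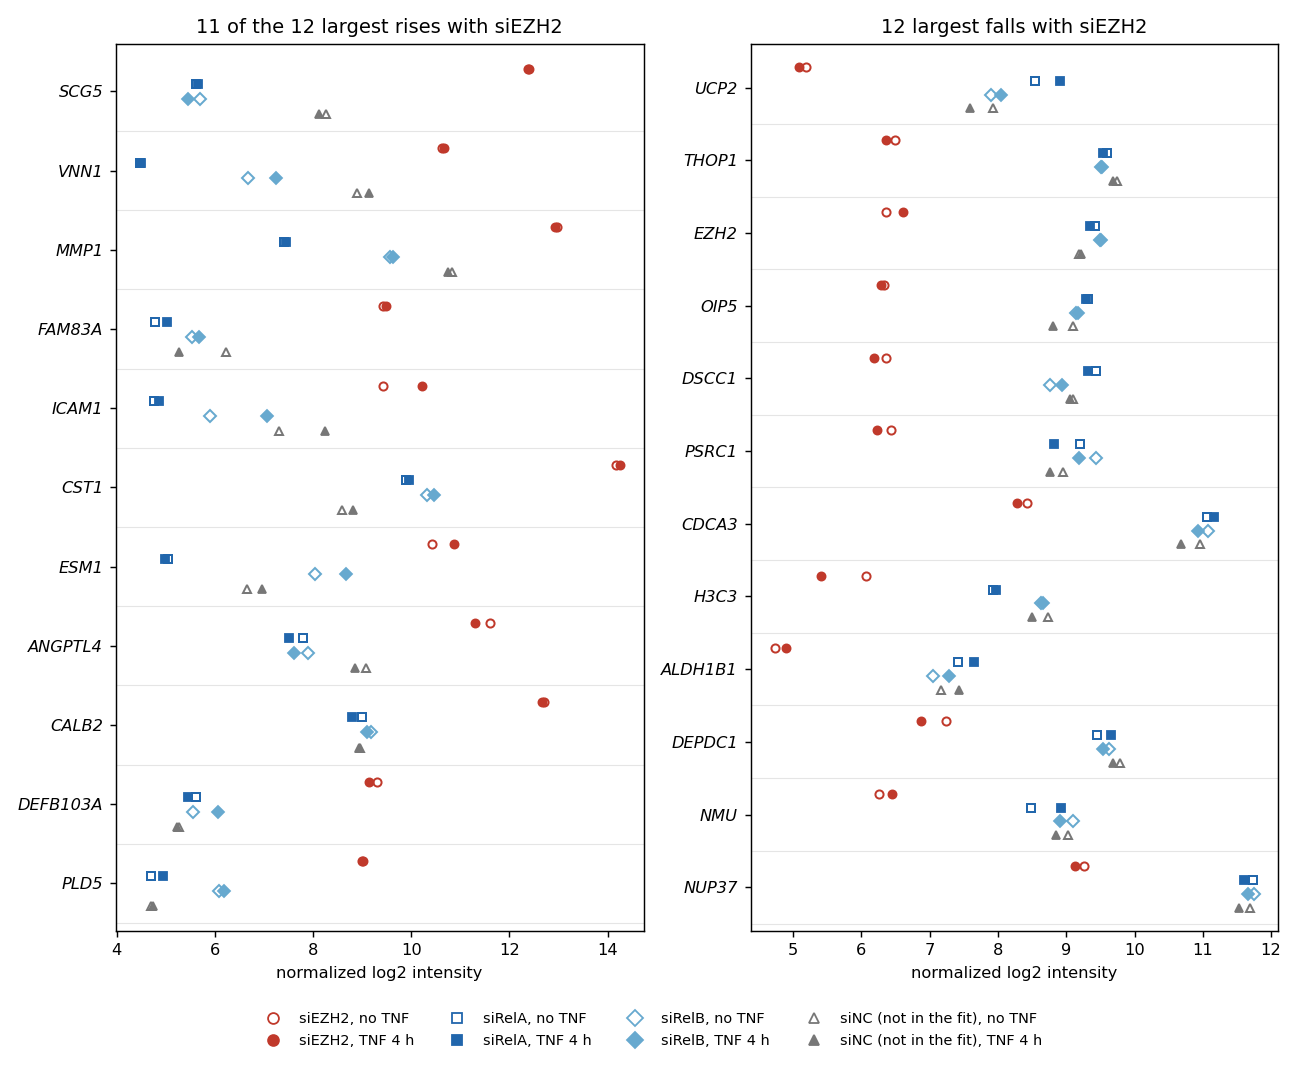
Normalized log2 intensity (x axis) on each array for 11 of the 12 largest rises and for the 12 largest falls with siEZH2; circles are siEZH2, squares siRelA, diamonds siRelB and triangles siNC, open without TNF and filled with TNF. The siEZH2 points stand apart from all siRelA and siRelB points in every row, and siNC sits near the NF-kB siRNAs in each of the falls but between the arms for SCG5, VNN1, MMP1, ICAM1 and ANGPTL4.

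UCP2, a mitochondrial inner membrane carrier, had the largest fall and was 5.18 and 5.08 with siEZH2, detected on 1 of those arrays, against 8.53 and 8.91 with siRelA and 7.90 and 8.04 with siRelB (9.29-fold lower, -3.22 ± 0.279, limma adjusted p = 0.000328). THOP1, a peptidase that degrades short peptides, was 6.49 and 6.35, against 9.51 to 9.60 on the other 4 arrays (8.71-fold lower, limma adjusted p = 5.36e-05). The mitochondrial aldehyde dehydrogenase gene ALDH1B1 was not detected with siEZH2 and was at least 4.55-fold lower than the 7.05 to 7.65 of the other arrays. With siNC, THOP1 was 9.74 and 9.68 and ALDH1B1 7.16 and 7.43, close to the NF-kB siRNAs, and UCP2 was 7.92 and 7.58, nearest the siRelB arrays.

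OIP5, which loads the centromeric histone, was 6.34 and 6.29 with siEZH2, against 9.32 and 9.28 with siRelA and 9.15 and 9.17 with siRelB (7.55-fold lower, limma adjusted p = 8.41e-05). DSCC1, a clamp loader subunit for sister chromatid cohesion, was 7.18-fold lower, the spindle gene PSRC1 7.12-fold and CDCA3, a trigger of mitotic entry, 6.51-fold. DEPDC1, a cell cycle gene, fell 5.69-fold, NUP37, a nuclear pore subunit that also sits at kinetochores, 5.62-fold, the neuropeptide gene NMU 5.67-fold and the replication-dependent histone gene H3C3, whose probe may read other H3 genes, 5.90-fold. All 12 falls had both siEZH2 arrays below all 4 others, as the naming rule required.

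Within PRC2, 1 of 11 members rose (9.09%, against 23.5% of all genes) and 3 fell, EZH2 included (27.3%, against 24.3%), so the share that fell was near that of all genes. Besides EZH2, AEBP2, a cofactor that stimulates the complex, was 6.41 and 6.38 with siEZH2, against 7.50 and 7.37 with siRelA and 7.20 and 7.38 with siRelB (-0.97 ± 0.115, limma adjusted p = 0.000971). The accessory subunit gene PHF19 fell by 0.50 by its brightest probe and by 1.88 and 0.57 by others, and the call was lost without either siEZH2 array. JARID2, which recruits PRC2 to its targets, was 11.73 and 11.74, against 10.52 and 10.48 with siRelA and 10.88 and 10.70 with siRelB (1.09 ± 0.137, limma adjusted p = 0.00117). The core subunits SUZ12 and EED changed by 0.11 (adjusted p = 0.496) and -0.26 (adjusted p = 0.116), and the paralogue EZH1 by 0.11 (adjusted p = 0.604).

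Mitosis genes fell as a group, and in such bulk samples fewer dividing cells and less RNA per cell cannot be told apart. All 31 tested members passed as lower, against 24.3% of all genes, 23 of them over 2-fold, against 5.15% of all genes. The median was -1.31, against -0.03 over all 12009 genes, and the range -2.19 to -0.77. CDC20, which activates the anaphase-promoting complex, was 10.71 and 10.80 with siEZH2, against 12.98 and 12.76 with siRelA and 13.05 and 12.99 with siRelB (4.56-fold lower, limma adjusted p = 0.000109). HMMR, a spindle assembly factor, was 6.44 and 5.70, against 7.85 to 8.21 (3.85-fold lower), AURKB, the kinase of the chromosomal passenger complex, 9.44 and 9.49, against 11.01 to 11.50 (3.43-fold lower), and NDC80, which anchors kinetochores to microtubules, 9.44 and 9.29, against 10.90 to 11.05 (3.06-fold lower). No siEZH2 value of any of the 31 genes reached the lowest value of the other 4 arrays, a separation seen for 33.3% of all genes. siNC lay nearer the NF-kB siRNAs in both TNF states for 29 of the 31, against 4277 of the 5741 called genes in all.

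Promoters of mitosis genes often carry a cell cycle homology region (CHR), bound by the DREAM and MYB-MuvB complexes, and CCAAT boxes, bound by NF-Y. RefSeq windows of 250 bases before to 50 bases after the start of each gene (GRCh38.p14) were matched for 26 of the 31 genes. A CHR, searched as TTTGAA or TTCGAA on both strands, was present in 19 of these (73.1%), against 16.6% of 27305 promoters, and CCAAT on either strand in 20 (76.9%), against 35.7%. The promoter of CDC20, shown because this gene fell most among the mitosis genes, holds 2 CHR matches, in capitals (chr1:43358731-43359030, plus strand).
CDC20: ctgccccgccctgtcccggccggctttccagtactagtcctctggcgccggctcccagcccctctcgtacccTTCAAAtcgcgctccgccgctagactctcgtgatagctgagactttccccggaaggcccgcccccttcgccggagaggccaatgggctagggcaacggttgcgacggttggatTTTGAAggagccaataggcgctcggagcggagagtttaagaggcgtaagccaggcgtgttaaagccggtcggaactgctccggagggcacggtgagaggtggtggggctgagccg

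Of 36 DNA replication genes tested, 32 passed as lower (88.9%, against 24.3% of all genes) and 0 as higher. Over 2-fold, 15 were lower (41.7%, against 5.15%), and the median was -0.90. PRIM1, the catalytic primase subunit, was 8.16 and 8.04 with siEZH2, against 10.29 and 10.32 with siRelA and 10.12 and 10.04 with siRelB (4.26-fold lower, -2.09 ± 0.121, limma adjusted p = 0.000123). GINS4 and MCM2, subunits of the replicative helicase, were 3.69-fold and 3.62-fold lower, and TYMS, which makes thymidylate, 3.17-fold. RPA1, RPA2, POLA1 and GINS3 had changes of -0.24 to -0.14 and did not pass. The 4 E2F sequences searched (TTTGGCGC, TTTCCCGC, TTTGCCGC and TTTCGCGC, both strands) were present in 16 of 30 replication gene promoters (53.3%), in 2 of 26 mitosis gene promoters (7.69%) and in 3.33% of all promoters. CHR matches were present in 2 of the 30 (6.67%). MCM2 fell most among those with an E2F match, and its promoter holds 2 overlapping matches, one on each strand, in capitals (chr3:127598161-127598460, plus strand).
MCM2: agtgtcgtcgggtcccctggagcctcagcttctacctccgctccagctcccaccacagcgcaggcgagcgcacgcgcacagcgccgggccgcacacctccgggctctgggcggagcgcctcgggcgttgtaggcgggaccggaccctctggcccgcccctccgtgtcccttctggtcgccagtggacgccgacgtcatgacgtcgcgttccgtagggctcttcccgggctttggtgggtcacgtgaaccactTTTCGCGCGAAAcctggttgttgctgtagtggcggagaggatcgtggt

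Of 24 genes of homologous recombination and crosslink repair, 17 passed as lower (70.8%, against 24.3% of all genes) and 0 as higher (median -0.80), with DSCC1 the most changed. FANCD2, which marks stalled forks, was 7.58 and 7.57 with siEZH2, against 9.42 to 9.68 on the other 4 arrays (3.90-fold lower, limma adjusted p = 0.00011), and another FANCD2 probe changed by -0.97. The nuclease gene EXO1 was 2.90-fold and the helicase gene BLM 2.79-fold lower. siNC lay nearer the NF-kB siRNAs in both TNF states for all 17 called genes, against 4277 of the 5741 called genes in all. Inhibitors of cyclin-dependent kinases went both ways. CDKN1C, which encodes p57, was 7.25 and 7.03, against 6.04 to 6.64 (0.87 ± 0.123, limma adjusted p = 0.00185), and CDKN1A, which encodes p21, 11.84 and 12.26, against 10.74 and 11.04 with siRelA and 11.14 and 11.78 with siRelB (0.87 ± 0.22, limma adjusted p = 0.0173). CDKN3, a phosphatase of these kinases, and CDKN2C, which encodes p18, were 2.43-fold and 1.99-fold lower. The CDKN1A call was lost without either siEZH2 array, and another CDKN1A probe changed by 0.34 and did not pass.

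**Figure D3:**
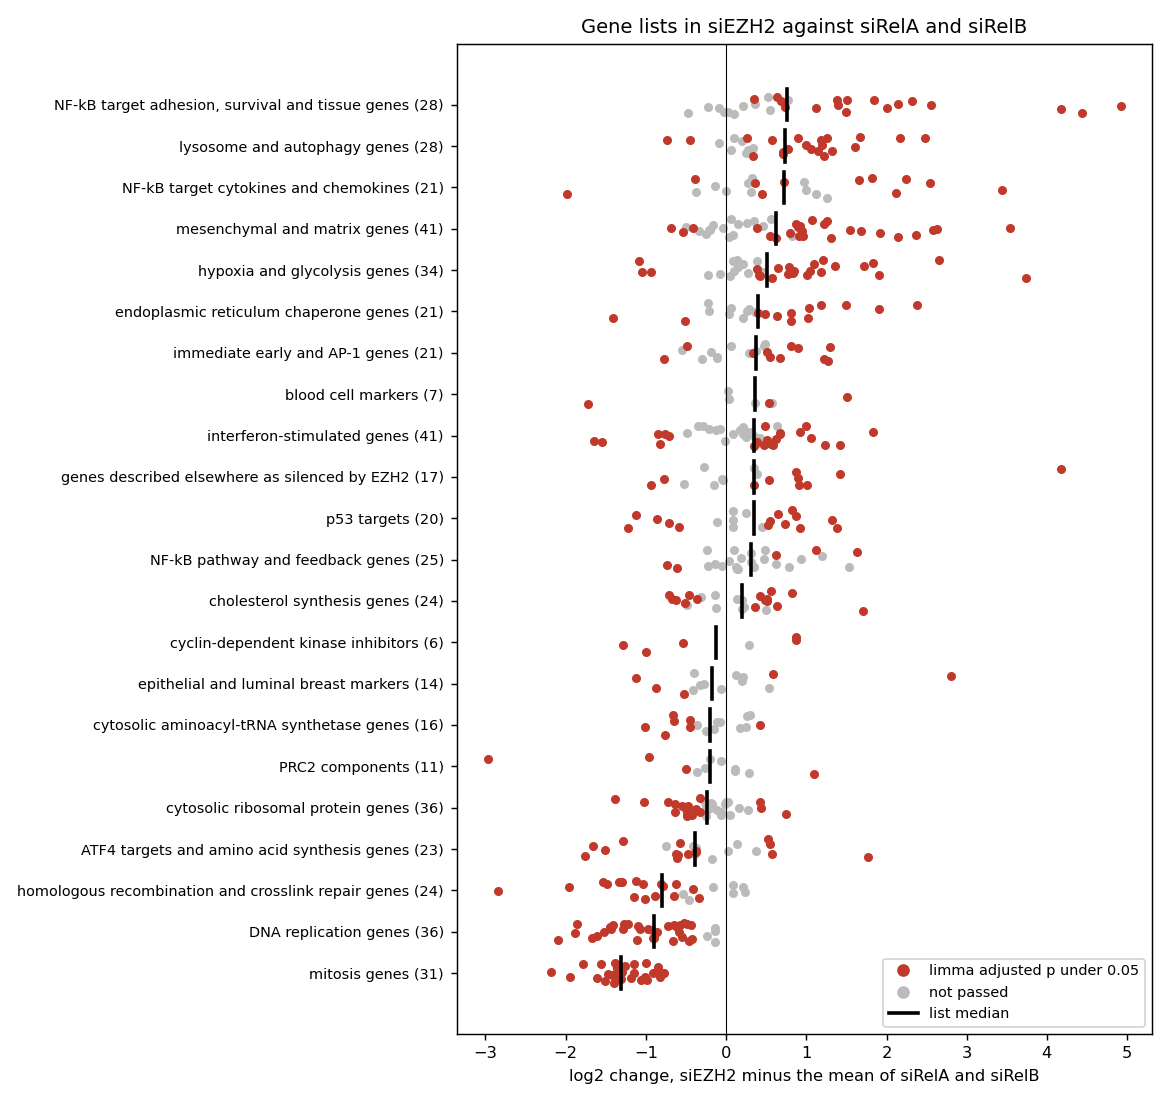
Log2 change (x axis, siEZH2 minus the mean of siRelA and siRelB) of every tested member of the 22 gene lists, red where the limma adjusted p was under 0.05 and grey where not, with the list median as a black bar and the number tested in brackets. Mitosis genes lie wholly below 0, with a median of -1.31, and NF-kB target adhesion genes have the highest median, 0.75.

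NF-kB target cytokines and chemokines were measured against arms in which an NF-kB subunit itself was reduced. Of 21 tested, 9 passed as higher with siEZH2 (42.9%, against 23.5% of all genes) and 2 as lower (9.52%, against 24.3%), with a median of 0.73. Against siRelA alone 15 were higher (71.4%, against 27.1% of all genes) and 2 lower (9.52%, against 28.3%), with a median of 0.74. Against siRelB alone 6 were higher (28.6%, against 26.6%, near the share of all genes) and 3 lower (14.3%, against 28.1%), with a median of 0.22. The difference between these comparisons was not tested. IL1B, a pyrogenic interleukin, was 10.04 and 11.43 with siEZH2, against 6.22 and 6.55 with siRelA and 7.43 and 8.98 with siRelB (10.9-fold, 3.44 ± 0.654, limma adjusted p = 0.00582). IL1A was 8.48 and 9.79, against 5.14 and 5.91 with siRelA and 6.98 and 8.35 with siRelB (limma adjusted p = 0.0278), and CSF1, the macrophage growth factor, 7.37 and 7.51, against 4.86 and 4.85 with siRelA, where it was not detected, and 5.48 and 5.59 with siRelB (limma adjusted p = 0.000715). Leaving out either siEZH2 array ended the IL1B call and the IL1A call, and for IL1A so did leaving out the siRelA CTRL array. For all 3 the siRelA arrays were the lowest. Replicate 3 and the TNF array of siNC were close to siEZH2, at 9.57 and 10.66 for IL1B, 8.49 and 9.57 for IL1A and 7.06 and 7.31 for CSF1. Replicates 1 and 2 without TNF, outside the comparison, gave siEZH2 minus siNC of 0.52 and -2.14 for IL1B. They gave -0.04 and -1.95 for IL1A and 0.10 and -0.50 for CSF1, so replicate 2 had siEZH2 below siNC for each. Over the list, siNC lay nearer siEZH2 in both TNF states for 10 of the 11 called genes, against 644 of the 5741 called genes in all.

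CXCL8, the main neutrophil chemokine, was 12.42 and 14.55 with siEZH2, against 10.14 and 11.68 with siRelA and 12.83 and 14.26 with siRelB. It was 2.58 ± 0.178 higher than with siRelA (limma adjusted p = 0.000232) and changed by -0.06 against siRelB (adjusted p = 0.805), and did not pass against both together (1.26, adjusted p = 0.283). CSF2, which encodes GM-CSF, was 11.46 and 13.18, against 9.63 and 10.97 with siRelA and 11.28 and 12.92 with siRelB, with changes of 2.02 against siRelA (limma adjusted p = 0.000162) and 0.22 against siRelB (adjusted p = 0.164). The siEZH2 values of both genes thus lay close to the siRelB values of the same TNF state. CXCL1 and CXCL2, also neutrophil chemokines, changed by 1.79 and 1.93 against siRelA and by 0.14 and 0.06 against siRelB. These 4 genes were picked after their values were seen.

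Some cytokine genes lay below siNC in all knockdown arms. IL6, an inflammatory cytokine, was 8.31 and 10.21 with siEZH2, against 8.80 and 9.20 with siRelA and 8.19 and 9.62 with siRelB, with siNC at 10.82 and 11.84, and the arms were not separated (0.31, adjusted p = 0.394). CXCL10, a T cell chemokine, was 4.75 and 5.45, against 4.85 to 5.57 on the other 4 arrays and 7.79 and 8.70 with siNC. For both genes siNC exceeded every siEZH2, siRelA and siRelB value. IL11, an interleukin-6 family cytokine, was lowest with siEZH2, at 8.36 and 8.12, against 10.22 and 10.56 with siRelA and 10.06 and 10.06 with siRelB (-1.98, limma adjusted p = 0.000332), while siNC was 10.86 and 10.95. IL6 and CXCL10 were likewise chosen after their values were seen, and so was IL11.

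**Figure D4:**
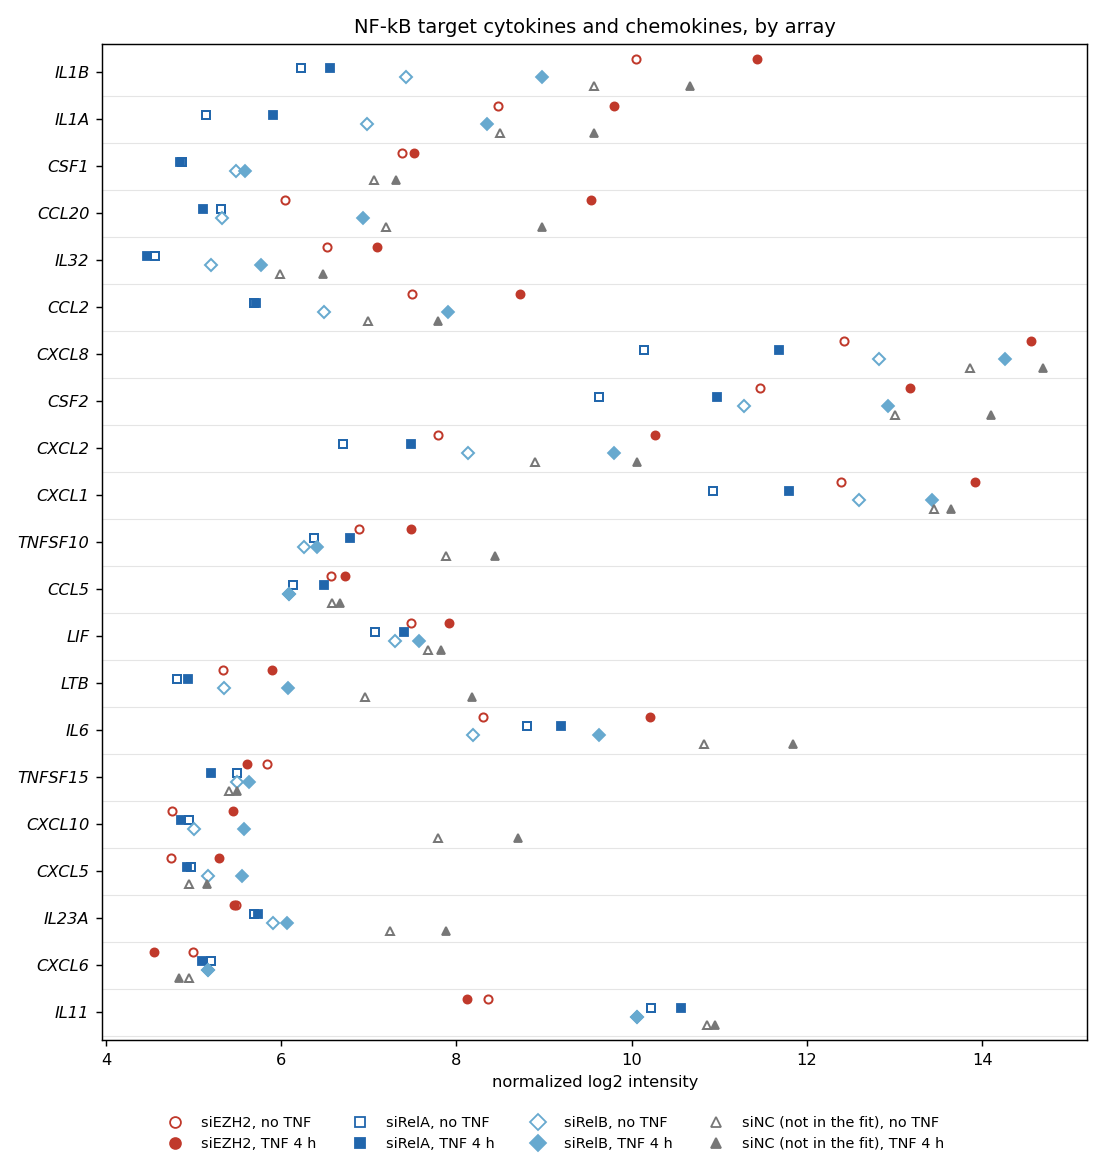
Normalized log2 intensity (x axis) of the 21 tested NF-kB target cytokines and chemokines on each array, ordered by the change with siEZH2 from the largest rise (top); circles are siEZH2, squares siRelA, diamonds siRelB and triangles siNC, open without TNF and filled with TNF. IL1B, IL1A and CSF1 show siEZH2 and siNC together above siRelA and siRelB, whereas IL6 and CXCL10 show siNC alone on the right.

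CCL20, which attracts immature dendritic cells, was 6.04 and 9.53 with siEZH2, against 5.31 and 5.10 with siRelA and 5.32 and 6.94 with siRelB (2.12 ± 0.70, limma adjusted p = 0.0442). The siEZH2 array without TNF lay below the siRelB array with TNF, and the call was lost in 5 alternatives, among them leaving out the siEZH2 TNF array or the siRelA CTRL array. A kB sequence, searched on both strands as GGG and TTTCC with NN, any pair of bases, between them, was present in 8 of 17 matched cytokine promoters (47.1%), against 1.92% of all promoters, 0 of 26 for mitosis genes and 3.33% for replication genes. That of CCL20, the most changed gene among the 8, is shown with the match in capitals (chr2:227813592-227813891, plus strand).
CCL20: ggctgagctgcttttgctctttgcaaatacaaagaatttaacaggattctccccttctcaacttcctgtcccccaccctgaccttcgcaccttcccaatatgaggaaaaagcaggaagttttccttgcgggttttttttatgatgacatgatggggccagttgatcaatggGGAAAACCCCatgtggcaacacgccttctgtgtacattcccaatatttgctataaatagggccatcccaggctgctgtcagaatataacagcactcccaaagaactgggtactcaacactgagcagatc

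Genes that transmit or limit NF-kB signalling mostly did not pass. Of 25 tested, 3 were higher (12.0%, against 23.5% of all genes) and 2 lower (8.0%, against 24.3%), with a median of 0.30. The 25 include the targets of the reference siRNAs. RELA counts among the genes higher against siRelA, and RELB among those higher against siRelB and in the pooled fit, as the design fixed in advance. Against siRelA alone 15 were higher (60.0%, against 27.1% of all genes) and 2 lower (8.0%, against 28.3%). Against siRelB alone 3 were higher (12.0%, against 26.6%) and 6 lower (24.0%, against 28.1%), shares below those of all genes, and the difference between the siRelA and siRelB comparisons was not tested. BCL3, an atypical nuclear IkB protein, was 7.46 and 8.08 with siEZH2, against 6.44 and 6.57 with siRelA and 6.61 and 6.99 with siRelB (1.12 ± 0.158, limma adjusted p = 0.0018). The stress survival gene IER3 was 1.54-fold higher, and TRAF2, an adaptor of TNF receptors, was 6.57 and 6.76, against 7.26 to 7.55 (1.67-fold lower, limma adjusted p = 0.00113). siNC lay nearer siEZH2 in both TNF states for the 3 genes called higher and nearer the NF-kB siRNAs for the 2 called lower. It was 7.37 and 7.82 for BCL3, 14.22 and 14.56 for IER3 and 7.77 and 8.32 for RELB. Over all 5741 called genes, siNC lay nearer siEZH2 in both states for 644. BCL3 lost its call in the fit of all 12 arrays (adjusted p = 0.328), and IER3 without the siEZH2 TNF array. The remaining gene called besides RELB was TNIP2, an A20-binding protein gene named after its value was seen, at -0.61.

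Genes for adhesion, survival and tissue remodelling that NF-kB is known to induce were higher with siEZH2 for 17 of 28 tested (60.7%, against 23.5% of all genes) and lower for 0, 13 of them over 2-fold (46.4%, against 5.91%), with a median of 0.75. Against siRelA alone 22 were higher (78.6%, against 27.1%) and 1 lower (3.57%, against 28.3%). Against siRelB alone 17 were higher (60.7%, against 26.6%) and 2 lower (7.14%, against 28.1%). VNN1, MMP1 and ICAM1 headed the list, followed by TFPI2, a serine protease inhibitor of the matrix, at 11.15 and 11.42, against 8.24 and 8.17 with siRelA and 9.25 and 9.26 with siRelB (5.88-fold, 2.56 ± 0.369, limma adjusted p = 0.00199). siNC lay nearer siEZH2 in both TNF states for 11 of the 17 called genes and nearer the NF-kB siRNAs for 5. Over all 5741 called genes these counts were 644 and 4277. Of the 4 named genes, siNC was between the arms for each, with TFPI2 at 9.82 and 9.72.

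Whether the change with siEZH2 depended on TNF could not be decided by the interaction fit. siEZH2 had 1 array in each state, assumed to vary like the others. The spread in that fit therefore came from differences between siRelA and siRelB arrays of the same TNF state. The median siEZH2 by TNF interaction was 0.32 for the cytokine genes and 0.32 for the pathway and feedback genes, against 0.0025 over all 12009 genes. The median TNF response of the 21 cytokine genes, 1 array against 1, was 0.59 with siEZH2, against 0.33 with siRelA, 0.57 with siRelB and 0.63 with siNC. For the 25 pathway and feedback genes it was 0.62 with siEZH2, against 0.14 with siRelA, 0.37 with siRelB and 0.46 with siNC. Both medians were lowest with siRelA. CCL20 responded by 3.49 with siEZH2, against -0.21 with siRelA, 1.61 with siRelB and 1.78 with siNC, and TNFAIP3, which encodes the feedback inhibitor A20 and was picked after its value was seen, by 2.21, against 0.73, 1.51 and 1.16 in the same order.

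Of 34 hypoxia and glycolysis genes tested, 20 passed as higher with siEZH2 (58.8%, against 23.5% of all genes) and 3 as lower (8.82%, against 24.3%), with a median of 0.51. After ANGPTL4, the most changed was NDRG1. This stress-responsive differentiation gene was 12.78 and 12.73, against 10.33 and 9.90 with siRelA and 10.18 and 10.00 with siRelB (6.29-fold, limma adjusted p = 9.33e-05). PFKFB4, which tunes glycolytic flux, rose 3.75-fold and the mitophagy receptor BNIP3L 3.57-fold. VEGFA and LDHA, chosen after their values were seen as classic members, changed by -0.08 and 0.15 and did not pass, and the glycolytic enzyme genes PGK1 and GAPDH, chosen likewise, fell by 1.08 and 0.94. The list therefore held members on both sides.

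Mesenchymal and matrix genes rose for 22 of 41 tested (53.7%, against 23.5% of all genes) and fell for 3 (7.32%, against 24.3%), with a median of 0.63. The collagen chain gene COL6A3 was 7.88 and 7.70 with siEZH2, against 4.88 and 5.00 with siRelA, where it was not detected, and 5.29 and 5.67 with siRelB, at least 6.06-fold higher than with siRelA. TGFBI, a matrix protein that integrins bind, was 11.82 and 11.72, against 9.12 to 9.55 (5.18-fold, limma adjusted p = 0.000127). For TGFBI siNC was 9.47 and 9.43, among the NF-kB siRNA arrays, and for COL6A3 it was 6.33 and 6.12, above all 4 of them.

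Lysosome and autophagy genes were higher for 19 of 28 tested (67.9%, against 23.5% of all genes) and lower for 2 (7.14%, against 24.3%), with a median of 0.74. Over 2-fold, 11 were higher (39.3%, against 5.91%). The cathepsin protease genes CTSB and CTSL led. CTSB was 10.42 and 10.37 with siEZH2, against 7.74 to 8.12 on the other 4 arrays (5.60-fold, limma adjusted p = 0.000109), and CTSL 11.79 and 11.65, against 9.45 to 9.79 (4.51-fold). ULK1, the kinase that starts autophagy, rose 3.18-fold and GABARAPL1, an autophagosome protein gene, 3.05-fold. Chaperones of the endoplasmic reticulum were higher for 11 of 21 (52.4%, against 23.5% of all genes) and lower for 2 (9.52%, against 24.3%), with a median of 0.40. HSPA5, which encodes the chaperone BiP, was 12.08 and 12.00, against 9.48 to 9.78 (5.19-fold, limma adjusted p = 9.33e-05), and DNAJB9 and HERPUD1, which act in degradation of misfolded proteins, rose 3.75-fold and 2.81-fold, while calnexin (CANX) fell 2.66-fold.

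Of 23 ATF4 targets and amino acid synthesis genes, 4 were higher (17.4%, against 23.5% of all genes) and 11 lower (47.8%, against 24.3%), with a median of -0.39. ASNS, asparagine synthetase, was 8.35 and 8.12 with siEZH2, against 10.49 and 10.41 with siRelA and 9.56 and 9.50 with siRelB (3.37-fold lower, limma adjusted p = 0.00517), a call lost without either siEZH2 array. The serine synthesis genes PSPH and PHGDH were 3.17-fold and 2.85-fold lower. CHAC1, a glutathione-degrading ATF4 target, rose 3.42-fold. Among 16 cytosolic aminoacyl-tRNA synthetase genes, which charge tRNAs, 1 was higher (6.25%, against 23.5% of all genes) and 6 lower (37.5%, against 24.3%), while 9 did not pass (median -0.20). VARS1 was 2.01-fold lower by one probe and changed by -0.01 by another, and YARS1 and KARS1 were 1.69-fold and 1.58-fold lower. YARS1 lost its call without the siEZH2 CTRL array and KARS1 without the siEZH2 TNF array.

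The remaining lists held genes on both sides, and their counts are read against the 23.5% of all genes called higher and the 24.3% called lower. Of 41 interferon-stimulated genes 16 were higher (39.0%) and 6 lower (14.6%), with a median of 0.35. HLA-B, a class I heavy chain gene whose probe may read its paralogues, was 12.68 and 12.53 with siEZH2, against 10.56 to 10.93 on the other 4 arrays, and IFI44 rose 2.68-fold, while the peptide transporter gene TAP2 fell 3.13-fold (-0.46 by another probe, not passing) and IFI35 2.91-fold. Of 20 p53 targets 9 were higher (45.0%) and 5 lower (25%, near the share of all genes), with a median of 0.35, and with the stress genes TP53INP1 and SESN2 2.61-fold and 2.49-fold higher and the repair gene DDB2 and the cyclin gene CCNG1 2.33-fold and 2.17-fold lower; the line carries mutant p53. Of 24 cholesterol synthesis genes 9 were higher (37.5%) and 6 lower (25%, again near the share of all genes), with SC5D, a late enzyme of the pathway, 3.25-fold and HMGCS1 1.77-fold higher, and the isomerase gene IDI1 1.60-fold lower. Of 21 immediate early genes 9 were higher (42.9%) and 2 lower (9.52%), with the transcription factors KLF4, EGR1 and FOSB 2.45-fold, 2.42-fold and 2.34-fold and the phosphatase gene DUSP6 1.86-fold higher. EGR1 lost its call without either siEZH2 array, FOSB without the CTRL one and IDI1 without the TNF one.

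Of 25 genes described elsewhere as silenced by EZH2, 17 were tested, 8 were higher (47.1%, against 23.5% of all genes) and 2 lower (11.8%, against 24.3%), with a median of 0.35. Members detected on 0 or 1 of the 6 arrays were not tested. VASH1 was detected on both siEZH2 arrays but on 1 of the 4 others, so it met the filter through the arm where it was high. Besides ICAM1, the angiogenesis inhibitor gene VASH1 was 6.58 and 6.41 with siEZH2, against 4.87 and 4.90 with siRelA, where it was not detected, and 5.07 and 5.48 with siRelB (limma adjusted p = 0.00144), at least 2.47-fold higher than with siRelA. The guidance ligand gene SLIT2 was 2.02-fold higher (limma adjusted p = 0.0305), a call lost when any 1 of the siEZH2 or siRelA arrays was left out. It was 8.33 and 8.08 with siEZH2, against 6.83 and 6.72 with siRelA and 7.59 and 7.64 with siRelB. Its siNC values, 7.81 and 7.88, lay nearer siEZH2. PEBP1, which encodes the RAF kinase inhibitor protein, was 11.60 and 11.51, against 12.39 to 12.57 (1.92-fold lower). Among called genes of the list, siNC lay nearer the NF-kB siRNAs in both TNF states for 6 and nearer siEZH2 for 3. For 1 it was split between the states. CDH1, the E-cadherin gene most often cited as an EZH2 target, changed by -0.28 and did not pass; it was detected on 3 of the 6 arrays and was chosen after its value was seen.

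Markers of other cells were measured alongside. Of 24 epithelial and luminal breast markers 14 were tested, 2 higher (14.3%, against 23.5% of all genes) and 3 lower (21.4%, against 24.3%), both shares below those of all genes, and their summed linear level was 8176 and 7631 with siEZH2, against 9723 to 11306 with siRelA and siRelB. MUC1, a luminal mucin gene, was 7.59 and 7.97 with siEZH2, against 4.95 and 5.28 with siRelA and 4.97 and 4.69 with siRelB, where 1 of those 4 arrays detected it (7.01-fold, limma adjusted p = 0.000152), EPCAM, an epithelial adhesion gene, 7.36 and 7.35, against 8.38 to 8.55 (2.18-fold lower), KRT18 1.83-fold lower (-0.29 and -0.43 by other probes) and CLDN4 1.50-fold higher. The part of these markers in the results was not tested. Of 15 blood cell markers 7 were tested; their summed level was 4330 and 4168, against 3892 to 4906, and CD3D, CD3E, MS4A1, ITGAM, SPI1 and HBB were detected on 0 of 6 arrays. Of the 7 blood cell markers, 2 passed as higher (28.6%, near the 23.5% of all genes) and 1 as lower (14.3%, against 24.3%). CD14, a monocyte receptor gene, was at least 2.02-fold higher and LYZ at least 1.21-fold higher. Neither was detected with siRelA or siRelB, so both met the filter only through the siEZH2 arrays, where they were high. LAPTM5, a lysosomal protein gene, was 3.30-fold lower. CLDN4 and LYZ lost their call without either siEZH2 array, and so did RPS23. Cytosolic ribosomal protein genes were higher for 3 (8.33%, against 23.5% of all genes) and lower for 15 of 36 (41.7%, against 24.3%), with RPS15, RPS3 and RPS6 2.60-fold, 2.02-fold and 1.66-fold lower and RPS23 1.68-fold higher; probes for these genes may read pseudogenes.

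The direction of change was then read on the 4 arrays outside the comparison, replicates 1 and 2 of siEZH2 and siNC without TNF, none of which entered the fit above. Of the 710 genes over 2-fold higher, siEZH2 exceeded siNC in both replicates for 664 (93.5%), against 38.4% of all genes. Of the 619 over 2-fold lower, 607 were lower in both (98.1%), against 37.7% of all genes. All 31 mitosis genes were lower in both replicates, with medians of -1.12 and -2.12. In contrast, the 21 cytokine genes had medians of -1.05 and -1.95 against siNC here, opposite in sign to 0.73 against the NF-kB siRNAs. The 25 pathway and feedback genes also turned, to -0.40 and -0.44 from 0.30. Medians of the 28 adhesion and remodelling genes were 0.03 and -0.19, down from 0.75. Those of interferon-stimulated genes were 0.03 and 0.01, down from 0.35. Lysosome and autophagy genes stayed higher, at 0.89 and 0.66 (0.74 against the NF-kB siRNAs). So did mesenchymal and matrix genes, at 0.53 and 0.50 (0.63). DNA replication genes stayed lower, at -0.80 and -0.81 (-0.90), and so did ATF4 targets, at -0.43 and -0.86 (-0.39). Other rises were smaller in replicate 2. Hypoxia and glycolysis genes were at 0.25 and 0.05 (0.51) and endoplasmic reticulum chaperones at 0.33 and 0.04 (0.40). Immediate early genes were at 0.65 and 0.04 (0.37), and cholesterol synthesis genes changed sign between replicates, at 0.34 and -0.24 (0.20). Replicate 1 resembled replicate 3 of the same siRNA (SD of the log2 difference 0.250 for siEZH2 and 0.185 for siNC), replicate 2 differed more from replicate 3 (0.563 and 0.701), and the labels do not say whether replicates 1 and 3 share a culture. In limma 0 of 12009 genes (0%) passed on these 4 arrays without a replicate block, with 1717 at an unadjusted p under 0.05, and 3950 (32.9%) passed with the replicate number as a block.

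**Figure D5:**
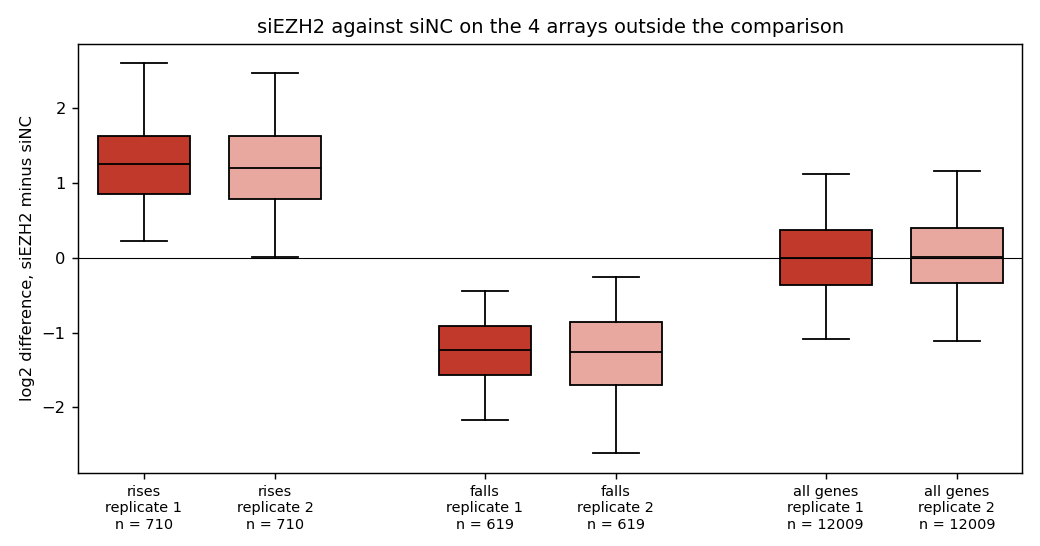
Log2 difference between siEZH2 and siNC (y axis) in replicates 1 and 2 without TNF, for the 710 genes higher and the 619 genes lower by over 2-fold with siEZH2 than with siRelA and siRelB, and for all 12009 genes; boxes span the quartiles, the line is the median and whiskers reach the 5th and 95th percentiles. Rises lie above 0 with medians of 1.25 and 1.19, and falls below 0 with medians of -1.23 and -1.26.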

How the data were processed

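RNA from 12 cell samples was hybridised to 1-colour bead arrays. The authors deposited signal intensity per probe on a linear scale, not normalized, per the file headers, made with BeadStudio 3.2.7, per the submitters' processing notes. A deposited detection score rises with signal, and 1 minus the score was used as detection p. The deposited count of beads averaged 40.8 to 43.1 per probe on the 6 arrays. The authors' processed values are on a log2 scale. Over 4621 bright probes each array equalled log2 signal less a constant per array and a centre per probe. The 6 arrays shared that centre (SD at most 5.44e-07). This SD is the same for any constant per array, so the check does not show which constant was used. How that step was run is not stated in what was available. Medians of these columns were 0.214 and 0.198 (siEZH2), -0.0663 and -0.0140 (siRelA) and -0.116 and -0.0377 (siRelB); those of the other arrays ran from -0.0544 to 0.0694.

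Signals were background-corrected by normexp in limma 3.58.1 under R 4.3.3, with negative controls inferred from detection p and an offset of 16. All 12 arrays were then quantile normalized together on the log2 scale. Probes with detection p under 0.05 on at least 2 of the 6 arrays were kept (13516), and the brightest probe stood for a gene. Of 22184 probes, 17828 carried a current symbol, 3305 were renamed by synonym, 868 matched nothing and 183 were ambiguous. Models were fitted with lmFit and eBayes, siRNA arm plus TNF, and p-values adjusted by Benjamini and Hochberg (threshold 0.05). A fold is given as "at least" where no array of an arm detected the gene, with the lowest detected signal as floor. The test was tried on simulated data beforehand. The few arrays set the precision.

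Replicate numbers of siNC and siEZH2 without TNF were taken to pair the samples. Over 5459 genes, deviations from group means correlated at 0.80, 0.84 and 0.76 for equal numbers. Replicates 1 and 3 also correlated across numbers, at 0.55 (siNC 3 with siEZH2 1) and 0.51 (siNC 1 with siEZH2 3). Unequal numbers that involve replicate 2 gave -0.80 to -0.66. The values thus set replicate 2 apart, and pair replicates 1 and 3 less clearly. Named genes were the targeted genes, the 12 largest called rises and falls without overlap, and up to 4 called members with the largest change per list; some of these are not reported here. The 22 lists, and the arrays compared, were chosen with earlier results of these data known. Alternatives covered scaling, background, detection filter, probe choice, the fit, the authors' values and leaving out each array.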

Additional observations from a re-analysis of the deposited data

How the results depend on the processing

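None of the 104 named genes changed sign in the alternatives run for it, 18 for 84 of them and 17 for the other 20, which were not tested where detection on all 6 arrays was required. Without the siEZH2 CTRL array 15 lost their call and without the siEZH2 TNF array 16, which leave 1 array assumed to vary like the others. Leaving out each array in turn gave 2488 to 5616 genes for siEZH2 against both NF-kB siRNAs (5741 with all), 5296 to 6153 against siRelA (6649) and 4314 to 6743 against siRelB (6563), where 4314 is the value without the siRelB TNF array. Fitting siRNA as 3 levels gave 7189 and all 12 arrays in 1 fit 4113; against siRelA and siRelB the 12-array fit gave 3225 and 3003. The authors' processed values called 6396, with 3799 higher and 2597 lower, against 2820 and 2921, and raised the median of all genes to 0.11 from -0.03; there the median of epithelial and luminal markers turned to 0.080 from -0.17. The median interaction over all genes stayed between -0.0071 and 0.014 in its alternatives. The pairing by replicate number matters for the 4 outside arrays: the replicate block called 3950 genes (2054 higher, 1896 lower), and leaving out each array, without the block, 11 to 203. No paired analysis was possible for the 6 arrays because siEZH2, siRelA and siRelB have 1 array in each TNF state. Values of genes detected on some arrays only are bounded by background, which was higher on the siEZH2 arrays.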
